A study of Mus musculus with 52 samples.

Results

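The muscle microRNA family of miR-1, miR-133 and miR-206 was followed here through 6 microRNA precursors chosen by name: mir-1a-1 (MI0000139), mir-1a-2 (MI0000652), mir-133a-1 (MI0000159), mir-133a-2 (MI0000820), mir-133b (MI0000821) and mir-206 (MI0000249), out of 1187 precursors in the deposited tables. They were measured by small RNA sequencing in 52 libraries of gonadal white adipose tissue from a knock-in allelic series for Huntington's disease. All groups were C57BL/6 mice of 6 months of age, 25 females and 27 males by the labels. In a first set of 15 libraries, 8 were from mice with 1 Q175 knock-in allele and 7 from wild type (WT) mice. In a second set of 37 libraries, each mouse carried 1 knock-in allele named for its CAG repeat length: Q20 (8 libraries, the normal-length reference), Q80 (8), Q92 (7), Q111 (7) or Q140 (7). Each genotype and sex held 3 or 4 libraries. WT and Q20 mice were housed together and the other alleles with their own genotype, so housing and allele cannot be told apart. Nothing in the labels says that libraries came from separate animals, so p-values measure the spread between these libraries.

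These microRNAs are known as myomiRs: they are made mainly in striated muscle, where miR-1 and miR-206 promote differentiation of muscle cells and miR-133 acts on their proliferation and on genes of the contractile and cytoskeletal programmes. miR-1 and miR-133 are found in heart and skeletal muscle, whereas miR-206 and miR-133b are characteristic of skeletal muscle. Mature adipocytes are not known as a main site of their production, although miR-133 restrains the brown fat programme by acting on Prdm16. The genes lie in pairs, 1 member of the branch of miR-1 and miR-206 beside 1 of the miR-133 branch. In the RefSeq annotation, Mir206 and Mir133b lie within the long non-coding RNA Lincmd1 on chromosome 1, Mir1a-1 and Mir133a-2 within the non-coding host gene Mir1a-1hg on chromosome 2, and Mir1a-2 and Mir133a-1 within Mib1, a ubiquitin ligase gene, and the non-coding Mir133a-1hg.

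Mature arms are printed for 3 of the 6 members, to show how alike the arms of these precursors are, with the seed (bases 2 to 8, the part that pairs with targets) in capitals; the RNA sequences are from RefSeq, build GRCm38.p6, 5′ to 3′ and from the plus strand. The miR-206 arms lie at chr1:20679017-20679039 and chr1:20679055-20679076, the miR-133b arms at chr1:20682797-20682818 and chr1:20682834-20682855, and the miR-1a-1 5p arm at chr2:180389057-180389079.
miR-206-5p: aCAUGCUUcuuuauauccucaua
miR-1a-1-5p: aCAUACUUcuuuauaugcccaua
miR-206-3p: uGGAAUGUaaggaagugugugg
miR-133b-5p: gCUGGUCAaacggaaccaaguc
miR-133b-3p: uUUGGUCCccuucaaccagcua
The 5p arms of miR-206 and miR-1a-1 are identical at 20 of 23 bases and differ by G5A within the seed and by C17G and U19C outside it, counted from 1 at the 5′ end with the miR-206 base first. No seed is shared among these 5 arms. The 3p arms of miR-1a and both arms of miR-133a are not printed, so whether members share a seed through them is not shown here. The deposited values are per precursor, not per arm.

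Library totals were 3800195 ± 795919 estimated counts (SD, n = 52), between 1812067 and 5487948. The column names give lanes 1 and 3 for the Q20 to Q140 libraries and lane 5 for all WT and Q175 libraries, so no comparison was made across the sets. The library labelled Q140 female 2 went against its label, and that labelled Q140 male 4 did so less clearly. The precursor MI0000553 was picked for its low p between the sexes in the WT and Q175 set. It stood at 19.5 CPM (counts scaled to the size of the library) in Q140 female 2, against 425 to 904 CPM in the 17 other females of the Q20 to Q140 set. In Q140 male 4 it stood at 690 CPM, against 4.35 to 635 CPM in the 18 other males, a range that overlaps that of the females. On the first principal component of the precursors other than the members (48.2% of the variance), 15 libraries lay above 5. They were 14 of the 27 males and Q140 female 2, at 15.7. Q140 male 4 lay at -8.67, but other males lay as low, such as Q20 male 3 at -9.41. Lists of microRNAs that mark striated and smooth muscle, epithelium and other cell types could not be matched to the accessions of the tables, so the labelled tissue was not checked against markers, and how much muscle or other tissue each specimen held was not tested. In bulk tissue, fewer cells of a type and less RNA per cell cannot be told apart.

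The members differed widely in level. On the length-corrected RPKM scale the medians over 52 libraries ran from 10169 for mir-133a-1, through 243 for mir-1a-2, 25.4 for mir-133a-2 and 2.21 for mir-133b, to 0.00065 for mir-1a-1 and 0 for mir-206. mir-133a-1 was above mir-1a-2, and mir-1a-2 above mir-133a-2, in 52 of 52 libraries. mir-133a-2 was above mir-133b in 49 libraries. The order of the last 3 is not resolved at this depth: mir-1a-1 had a count in 25 libraries and was listed at or near 0 in the other 27, and mir-206 had a count in 20. On the CPM scale mir-133a-1 made up 93.8% to 98.1% of the summed family. It reached 1.73% of a whole library.

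The levels of the second copies depend on how the authors' counting divided reads. Precursors mir-1a-1 and mir-1a-2 share a mature 3p sequence, as do mir-133a-1 and mir-133a-2, so the values of each copy are uncertain. RefSeq also places Mir1b over Mir1a-2, and whether the counting used strand is not given in the sources used here. mir-1a-1 took 0% to 36.7% of the mir-1a counts of a library and was under 0.01% in 27 libraries. In those 27 it was listed at or near 0, and in 7 further libraries it stood at almost the same value, 15.4006 to 15.4014 estimated counts. mir-133a-2 took a median of 0.394% and at most 1.11% of the mir-133a counts, in steps of 2.87 estimated counts: 37 of its 39 values below 10 steps lay within 0.05 of a whole step. These steps are not whole reads, and sums of each pair were therefore tested as an alternative. Counts of mir-133b were not whole either, such as 40.738 in Q92 male 2 and 48.062 in Q92 female 3. Whether they include reads divided with mir-133a was not tested.

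mir-133a-1, the member that carries most of the family's counts, spanned 112-fold across the libraries, between 205.5 CPM in Q80 male 3 and 22992 CPM in Q92 male 2. Most libraries lay low (median 675 CPM), and a few lay far above the rest. After Q92 male 2 came Q92 female 3 at 14898 CPM, Q80 female 2 at 9175 CPM and Q92 female 1 at 7211 CPM. Then followed Q111 female 2 at 4560 CPM, Q175 female 3 at 3795 CPM and Q140 female 3 at 3679 CPM. These 7 libraries come from 5 alleles and both sets.

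The same few libraries were high for the other members. mir-1a-2 spanned 3.73 CPM in Q80 male 3 to 773 CPM in Q92 male 2, with 362 CPM in Q92 female 3, 189 CPM in Q80 female 2 and 155 CPM in Q92 female 1, against a median of 16.7 CPM. mir-133a-2 had a median of 2.76 CPM and reached 114 CPM in Q92 male 2, 72.8 CPM in Q92 female 3 and 41.8 CPM in Q92 female 1. mir-1a-1, with a median of 0, reached 65.9 CPM in Q92 female 3, 59.2 CPM in Q92 male 2 and 54.1 CPM in Q80 female 2. mir-133b, a skeletal muscle precursor, had at least 10 counts in 4 libraries, namely Q92 female 3 (48.1 counts), Q92 male 2 (40.7), Q80 female 2 (32.5) and Q92 female 1 (12.2). It passed the filter on low counts in no fit, and no fold change of it is given from a filtered fit.

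**Figure D1:**
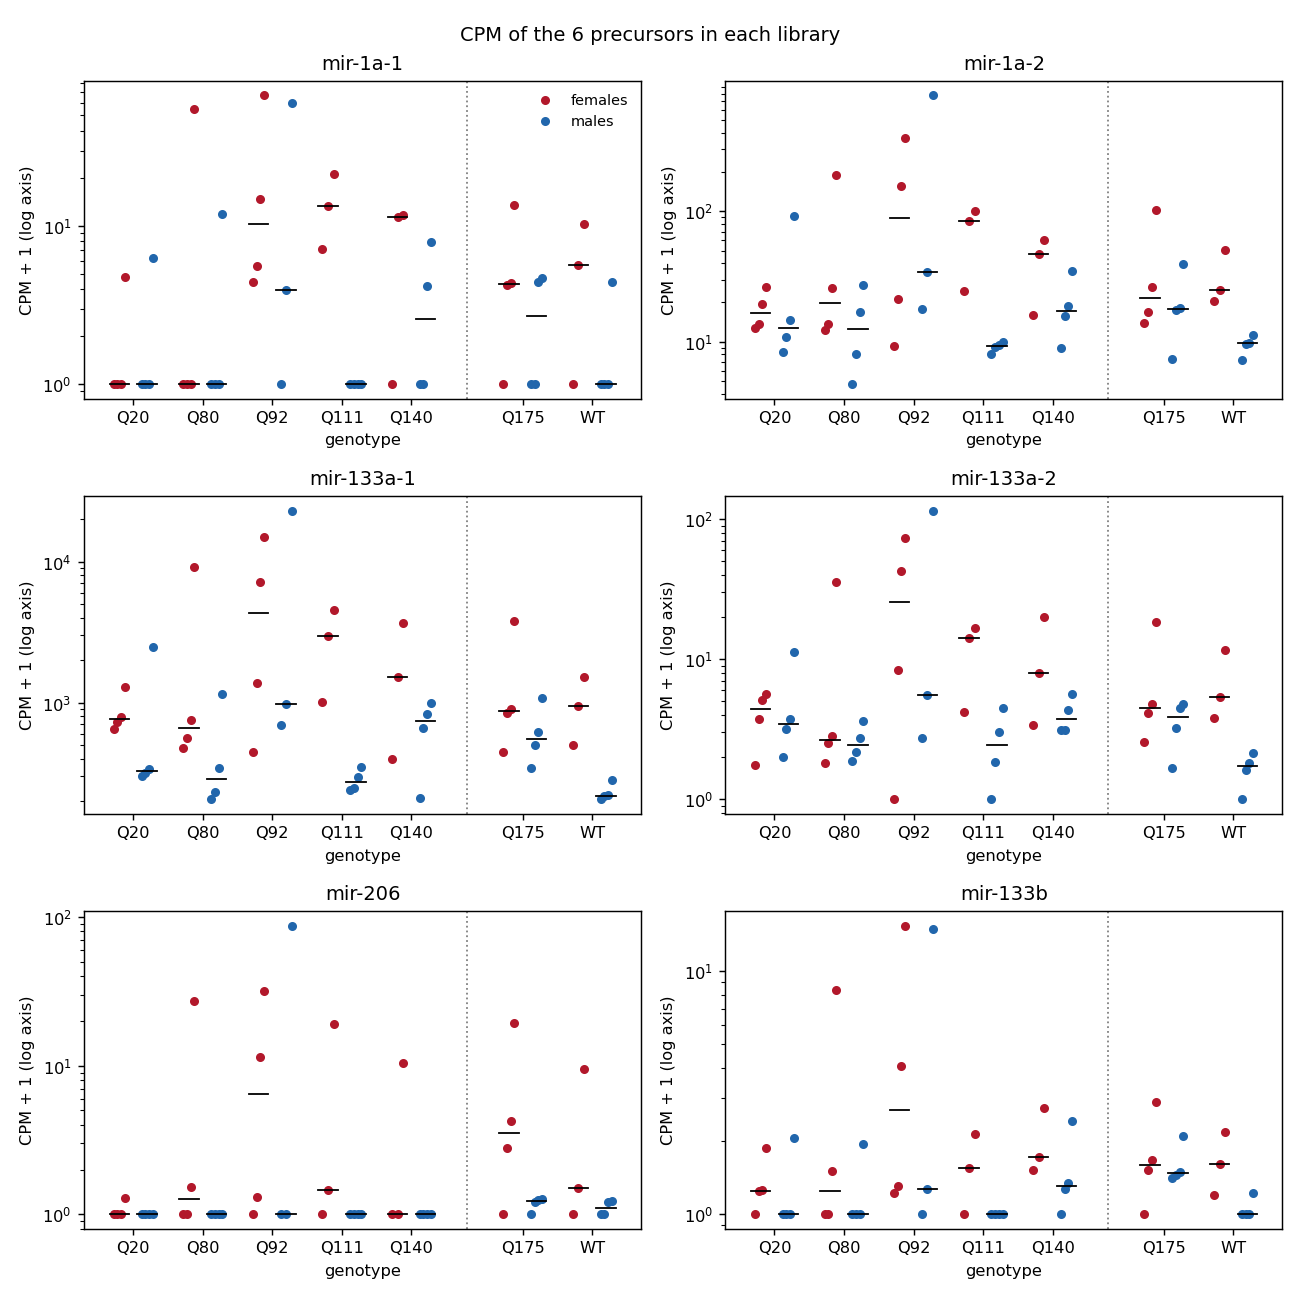
Each panel plots 1 precursor, with CPM plus 1 on a log axis against genotype; each point is 1 library (females and males in separate colours), horizontal bars are medians of a genotype and sex, and the dotted line divides the 2 sets. In Q92, female 1, female 3 and male 2 stand above every Q20 library for all 6 precursors, while for mir-133a-1 the other 4 Q92 libraries lie within the Q20 range.

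mir-206, the skeletal muscle precursor of the miR-1 branch, was close to all or nothing. It had 771 counts in all, 749 of them in 9 libraries with at least 10 counts, while 32 libraries had 0. In those 32, a count of 0 allows up to 3 counts. The 9 libraries were Q92 male 2 (254 counts), Q80 female 2 (117), Q92 female 3 (103), Q175 female 3 (87), Q111 female 2 (66), WT female 3 (42), Q92 female 1 (41), Q140 female 3 (27) and Q175 female 1 (12). They were 8 females and 1 male, from lanes 1, 3 and 5 (4, 2 and 3 libraries). By genotype they were 1 of 8 Q80, 3 of 7 Q92, 1 of 7 Q111 and 1 of 7 Q140 libraries, with 0 of 8 among Q20, and 2 of 8 Q175 against 1 of 7 WT libraries.

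The amount of mir-206 did not follow mir-133a-1 in every library. In the 9 libraries with at least 10 counts there were 1.46 to 5.58 counts of mir-206 per 1000 counts of mir-133a-1. Q111 female 1 had 2975 CPM of mir-133a-1, which is above that of WT female 3, but 2 counts of mir-206, or 0.154 per 1000 (exact Poisson 95% interval 0.0187 to 0.557). Q20 male 2, with 2481 CPM of mir-133a-1, had 0 counts of mir-206, which allows up to 0.424 per 1000. Q175 female 1 had only 904 CPM of mir-133a-1 and 12 counts of mir-206. Intervals and limits cover counting error only, since the reads carry no molecular identifiers in the sources used here. RNA quality and the tissue present in these libraries were not tested.

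**Figure D2:**
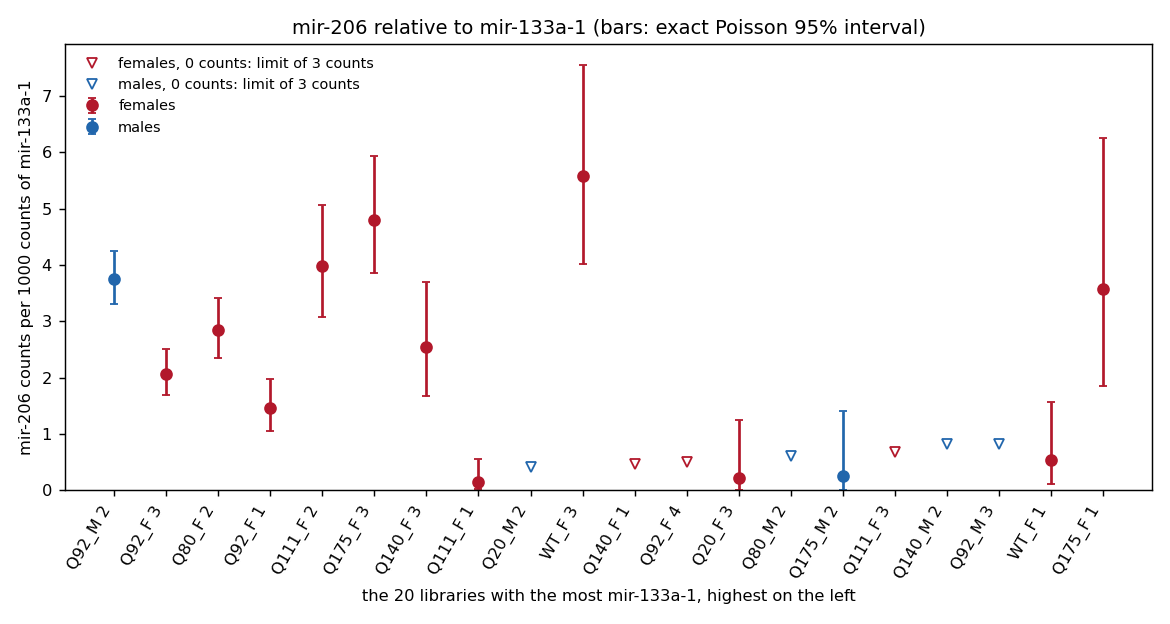
The vertical axis is mir-206 counts per 1000 mir-133a-1 counts, for the 20 libraries with the most mir-133a-1, ordered from the highest on the left; points carry exact Poisson 95% intervals and open triangles mark the limit that 0 counts allows. WT female 3 is highest at 5.58, while Q111 female 1 at 0.154 and Q20 male 2 below 0.424 lie beneath it although they have more mir-133a-1.

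Across libraries the members varied together, within genomic pairs and between them. Over 52 libraries and 15 pairs of members, Pearson's r on log2(CPM + 1) was 0.747 to 0.966 and Spearman's rho 0.516 to 0.933. The permutation p for r was 1e-05 in all 15 pairs, the smallest that 100000 resamples can give, and the highest adjusted p for rho was 0.00012. mir-1a-2 and mir-133a-1, neighbours on one chromosome, had the highest r at 0.966 (rho 0.933). The 3 neighbouring pairs ran from 0.78 to 0.966 and the 12 pairs on different chromosomes from 0.747 to 0.922, so the ranges overlapped. Without the 2 libraries farthest from the median, r was 0.655 to 0.951.

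Within 25 females all 15 pairs passed in both measures (permutation tests adjusted over 15 pairs), with rho 0.644 to 0.918. Within 27 males, r passed in all 15 pairs but rho in 11, and mir-133a-1 against mir-206 had r 0.755 (adjusted permutation p 0.0149) and rho 0.143 (adjusted permutation p 0.476). Without the 2 farthest libraries that r was 0.111, so in males it rests on those libraries. mir-206 was at 0 in 21 of the 27 males, and the relation was not compared between the sexes by a test. Within the 15 WT and Q175 libraries r was 0.509 to 0.955, rho passed in 12 pairs and r in 14 of 15, mir-133b against mir-206 being the exception (adjusted permutation p 0.0519). Within the Q20 to Q140 set all 15 pairs passed, with r 0.767 to 0.969. Library scaling is shared by all members of a library, and the 2 copies of a pair share reads.

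**Figure D3:**
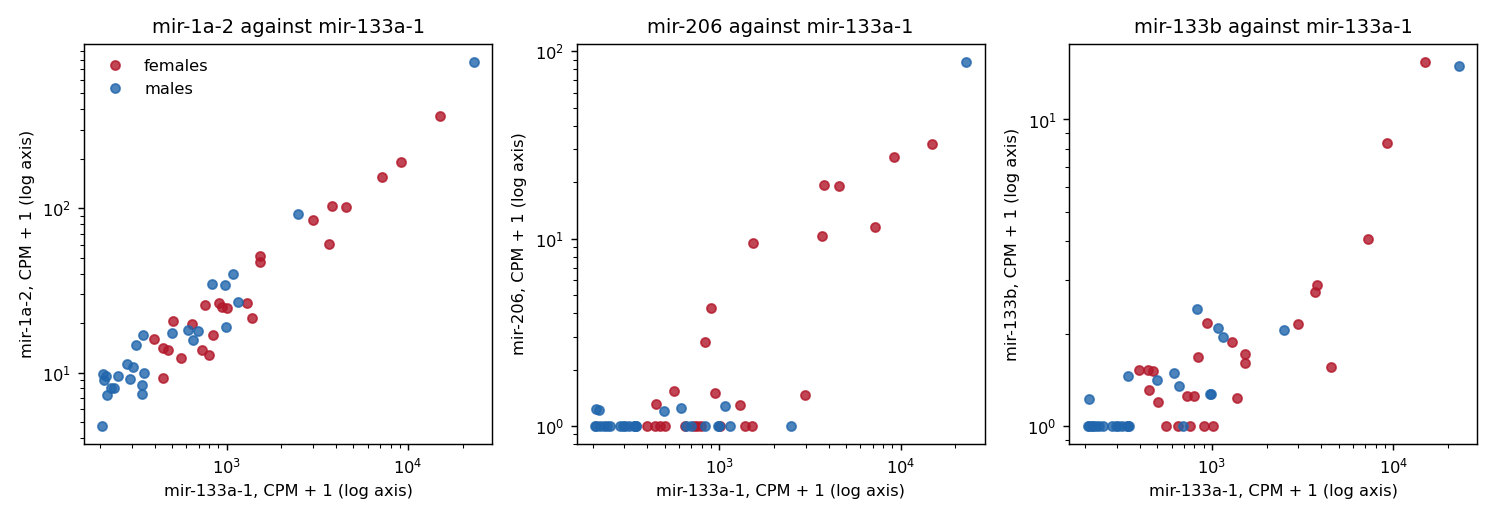
Each panel plots 1 precursor against mir-133a-1, both as CPM plus 1 on log axes, 1 point per library, with females and males in separate colours. mir-1a-2 follows mir-133a-1 over the whole range (r 0.966), whereas mir-206 lies at 0 in 32 libraries, among them Q20 male 2 with 2481 CPM of mir-133a-1.

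The comparison with the most called members was females against males in the fit across both sets, where 48.3% of all precursors tested were called. Within the Q20 to Q140 set alone no member was called. In mice, gonadal fat is periovarian in females and epididymal in males, so sex and depot cannot be told apart. mir-133a-1 was 396, 941 and 14898 CPM (lowest, median and highest) in 25 females, against 205.5, 342 and 22992 CPM in 27 males. All 25 females lay above the male median, and the ranges overlapped because of single high males such as Q92 male 2 and Q20 male 2. mir-1a-2 was 8.28, 24 and 362 CPM in females, against 3.73, 10.3 and 773 CPM in males, with 24 of 25 females above the male median.

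mir-133a-2 was 0, 4.07 and 72.8 CPM in females, against 0, 2.1 and 114 CPM in males. mir-1a-1 was 0, 3.77 and 65.9 CPM in females, against 0, 0 and 59.2 CPM in males. mir-206 had a count in 14 of 25 females, against 6 of 27 males, and Q92 male 2 held 254 of the 259 counts in males. Libraries with at least 10 counts of mir-206 were 8 of 25 females and 1 of 27 males.

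In edgeR's quasi-likelihood fit across 52 libraries with genotype as a covariate, mir-133a-1, mir-133a-2, mir-1a-2 and mir-1a-1, which each reached 10 counts in more than 7 libraries of either sex, were called higher in females, where 48.3% of the 356 precursors tested were called in either direction and 22.2% were called higher. The log2 fold change of females over males was 1.47 for mir-133a-1 (SE 0.42, edgeR adjusted p 0.00311). It was 1.45 for mir-133a-2 (SE 0.48, edgeR adjusted p 0.0107). For mir-1a-2 it was 1.053 (SE 0.43, edgeR adjusted p 0.0426) and for mir-1a-1 1.73 (SE 0.73, edgeR adjusted p 0.0479). mir-206 passed the filter only through the females, so its counts stand as a description and no test of it is given; mir-133b passed in neither sex.

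The calls of mir-133a-1 and mir-133a-2 held whichever single library was left out. Those of mir-1a-1 and mir-1a-2 were lost in 32 and 29 of 52 omissions, with the highest edgeR adjusted p of 0.204 and 0.121 without Q80 female 2. DESeq2 did not call mir-1a-1 (DESeq2 adjusted p 0.141) and called the other 3. The log2 fold change of mir-133a-1 was 2.42 when the 15 libraries with a first principal component over 5 were left out (edgeR adjusted p 0.000239). Those 15 were 14 males and Q140 female 2. They include the males highest in mir-133a-1, Q92 male 2 and Q20 male 2, but also low ones such as Q80 male 4. The larger value is thus not an independent check of the call. Within the WT and Q175 set, 3 of 4 members tested were called (background 30.5%), with mir-133a-1 at 1.69 (edgeR adjusted p 0.00962). Within the Q20 to Q140 set 0 of 4 were called by edgeR (background 36.2%), with mir-133a-1 at 1.41 (SE 0.57, unadjusted p 0.0189, edgeR adjusted p 0.0509) and the other 3 at an unadjusted p of 0.0625 to 0.133. In the fit across both sets, these 4 stayed called without the libraries labelled Q140 female 2 and Q140 male 4. There mir-133a-1 stood at 1.55, against 1.47 with all libraries. The share of all precursors called without these 2 libraries is not given here. Q140 female 2 is the female with the lowest mir-133a-1, and Q140 male 4 lay above the male median. The higher value is thus not an independent check of the call either.

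**Figure D4:**
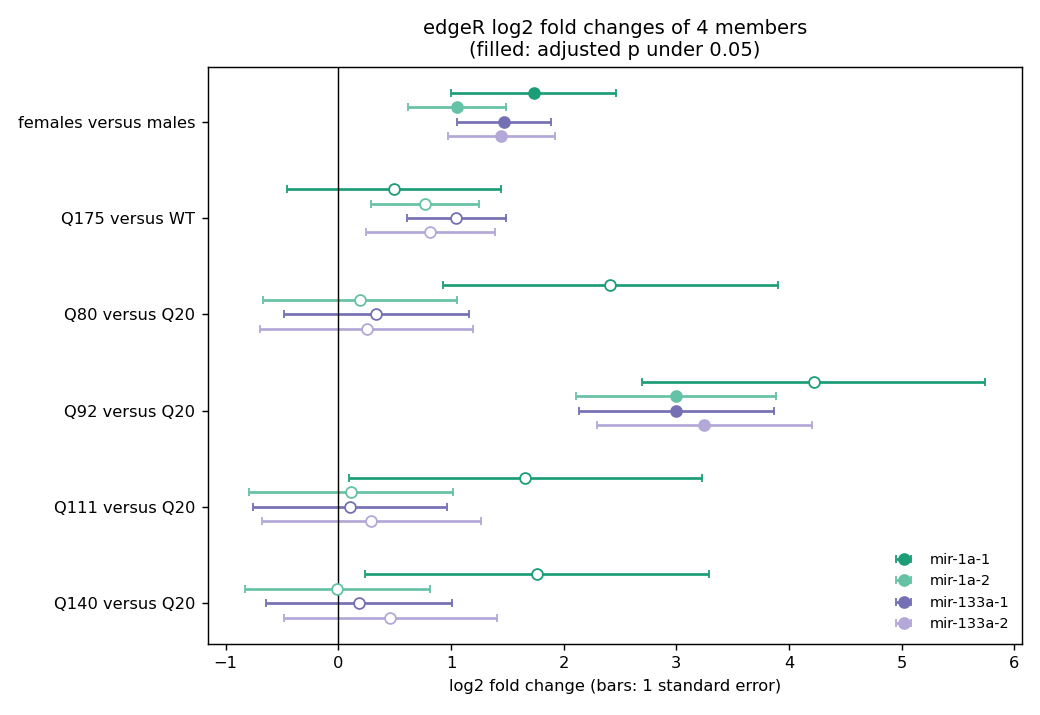
Log2 fold changes of mir-1a-1, mir-1a-2, mir-133a-1 and mir-133a-2 are drawn for females over males, Q175 over WT and 4 alleles over Q20, with bars of 1 standard error; filled points have an edgeR adjusted p under 0.05. All 4 points of females over males and 3 of the 4 of Q92 over Q20 are filled, and the bars of Q92 over Q20 are wide.

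Against Q20, the allele Q92 was the only one of 4 with called members. mir-133a-1 was 446, 1378 and 22992 CPM (lowest, median, highest) in 7 Q92 libraries, against 302, 686 and 2481 CPM in 8 Q20 libraries. Only 3 of the 7 Q92 libraries, female 1, female 3 and male 2, lay above the highest Q20 library, and the other 4 lay within the Q20 range. The 3 high libraries were in lane 1, as was Q92 male 3, while Q92 female 2, female 4 and male 1 were in lane 3. Q20 libraries lay in both lanes and all Q111 libraries in lane 1, so alleles were not balanced over lanes. mir-1a-2 was 8.28, 33.1 and 773 CPM in Q92, against 7.37, 13.3 and 90.6 CPM in Q20.

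mir-133a-2 was 0, 7.33 and 114 CPM in Q92, against 0.763, 2.76 and 10.2 CPM in Q20. edgeR called 3 of the 4 members tested higher in Q92, where 4.06% of 345 precursors were called in either direction and 2.32% were called higher. The log2 fold change was 2.999 for mir-133a-1 (SE 0.87), 2.997 for mir-1a-2 (SE 0.89) and 3.25 for mir-133a-2 (SE 0.95), each with an edgeR adjusted p of 0.0477. mir-1a-1 stood at 4.22 (SE 1.53, edgeR adjusted p 0.14) and was not called. DESeq2 called the same 3 members (DESeq2 adjusted p 0.00466 to 0.00764, background 4.35%). The median over the 4 was 3.12, against -0.0004 over all precursors.

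These calls lay at the threshold and rested on few libraries. Without Q92 male 2 the log2 fold change was 1.28 for mir-133a-1, 1.16 for mir-1a-2 and 1.64 for mir-133a-2 (edgeR adjusted p 0.608, 0.634 and 0.588). Without Q92 male 2 and Q92 female 3, an alternative chosen after seeing the data, it was 0.63, 0.42 and 0.95. Without Q20 male 2, the high Q20 library, it was 4.08 for mir-133a-1, 4.23 for mir-1a-2 and 4.10 for mir-133a-2, and mir-1a-1 was called too at 5.95. The calls of mir-133a-1, mir-1a-2 and mir-133a-2 were lost in 29, 30 and 29 of 37 omissions of single libraries, most of them of libraries from other alleles. With the lane as a covariate the edgeR adjusted p of these 3 was 0.0655 to 0.0892, at log2 fold changes of 2.80 to 3.26, and with RLE scaling it was 0.0547 to 0.0563. Q92 libraries also held 399 counts of mir-206, against 1 count in Q20 libraries. That is a CPM ratio of 429, with an exact 95% interval of 76.6 to 16987 that covers counting error only, and 254 of the counts were in Q92 male 2, without which the ratio was 177 (31.2 to 7027). mir-133b had 104 counts in Q92 against 8 counts in Q20, a CPM ratio of 14 (6.84 to 33.2). Of these, 48.1 were in Q92 female 3, 40.7 in male 2 and 12.2 in female 1, and without female 3 the ratio was 8.69 (4.12 to 21.1). The intervals of mir-133b do not cover how reads were divided between precursors. Ratios without the highest library were chosen after seeing the data.

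In the other alleles no member was called against Q20. mir-133a-1 was 205.5, 516 and 9175 CPM in Q80, 238, 347 and 4560 CPM in Q111 and 209, 828.7 and 3679 CPM in Q140, each range overlapping that of Q20. Its log2 fold change over Q20 was 0.34 in Q80 (SE 0.82, edgeR adjusted p 0.856), 0.10 in Q111 (SE 0.86, edgeR adjusted p 0.96) and 0.18 in Q140 (SE 0.82, edgeR adjusted p 0.925). In each of the 3 alleles edgeR called 0 of the 4 members tested and DESeq2 0, with 0 at an unadjusted p under 0.05, beside 1.45% of all precursors called in Q80, 0% in Q111 and 0.29% in Q140. All 4 alleles share the Q20 libraries.

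mir-206 in these alleles was carried almost wholly by 1 library each. mir-206 had 119 counts in Q80 against 1 in Q20, a CPM ratio of 110 (exact 95% interval 19.3 to 4363, counting error only), and Q80 female 2 held 117 of the 119. It had 68 counts in Q111, a ratio of 75.3 (13.1 to 3016), with 66 in Q111 female 2. It had 27 counts in Q140, a ratio of 27.1 (4.47 to 1111), all in Q140 female 3. Outside those single libraries, mir-206 had 2 counts in Q80, 2 in Q111 and 0 in Q140. mir-133b had 39 counts in Q80 against 8 in Q20, a ratio of 4.49 (2.07 to 11.1), which was 0.816 (0.233 to 2.68) without Q80 female 2. Its ratio was 0.969 (0.299 to 3.06) in Q111 and 2.26 (0.935 to 6.01) in Q140. Without Q111 female 1 the ratio in Q111 was 0.337 (0.0349 to 1.69). The log2 fold change of mir-1a-1 over Q20 was 2.42 in Q80 (SE 1.49, edgeR adjusted p 0.412), 1.66 in Q111 (SE 1.57, edgeR adjusted p 0.701) and 1.76 in Q140 (SE 1.53, edgeR adjusted p 0.591), none past the threshold. Whether Q92 differed from these 3 alleles was not tested.

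Medians over the 4 members were 0.30 in Q80, 0.20 in Q111 and 0.32 in Q140 on the log2 scale. The direction in Q80 turned for mir-133a-1 without Q80 female 2 (-0.66), and in Q111 without Q111 female 2 (-0.36). No trend over CAG repeat length was called either: edgeR called 0 of 4 members, 0 at an unadjusted p under 0.05 (DESeq2 called 0), with 0.29% of all precursors called. The slope of mir-133a-1 was 0.77 per 100 repeats (SE 1.17, edgeR adjusted p 0.804), and it was -3.25 without the Q20 libraries. Whether the slope differed between sexes was tested by an interaction, which called 0 of 4 members (0 at an unadjusted p under 0.05, DESeq2 0, background 0%).

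In the set of Q175 and WT, mir-133a-1 was 342, 726 and 3795 CPM in 8 Q175 libraries, against 208, 282 and 1528 CPM in 7 WT libraries. All 8 Q175 libraries lay above the WT median, with an average of 1064 ± 1132 CPM in Q175 and 557 ± 503 CPM in WT (SD). By sex, it was 342 to 1077 CPM in 4 Q175 males and 208 to 282 CPM in 4 WT males. Q175 females (443 to 3795 CPM) and WT females (503 to 1528 CPM) overlapped. How many of all precursors separated these males was not counted. The males also differed on principal component 1, at 9.03 to 13.3 in Q175 and -8.35 to 10.6 in WT. mir-1a-2 was 6.38, 16.9 and 102 CPM in Q175, against 6.27, 10.3 and 50 CPM in WT. mir-206 had 110 counts in Q175 and 47 counts in WT, a CPM ratio of 2.47 (1.74 to 3.55), with 87 of the Q175 counts and 42 of the WT counts in 1 female each. Without that Q175 female, female 3, the ratio was 0.606 (0.351 to 1.02). WT kept its own high female there, with 42 of its 47 counts, so no reversal can be read from it. Intervals cover counting error only.

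edgeR called 0 of the 4 members tested in Q175 against WT (1 at an unadjusted p under 0.05), beside 4.55% of 308 precursors. The log2 fold change of mir-133a-1 was 1.047 (SE 0.44, edgeR adjusted p 0.166), and DESeq2 called it (DESeq2 adjusted p 0.0491, background 11%). It was 1.56 in males alone (SE 0.33, edgeR adjusted p 0.0822) and 0.58 in females alone (SE 0.77, edgeR adjusted p 0.817). The interaction of sex and Q175 was -0.89 for mir-133a-1 (SE 0.87, edgeR adjusted p 0.879) and called 0 of 4 members (0 at an unadjusted p under 0.05, DESeq2 0, background 0%), so a difference between the sexes was not detected. Without Q175 female 3 the log2 fold change was 0.66, with an edgeR adjusted p of 0.387.

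Outside the family, the 5 precursors whose CPM over 52 libraries most resembled the summed family, of 242 with a mean of at least 10 CPM, were MI0000798, MI0001151, MI0000164, MI0014027 and MI0000169. Their Spearman's rho with the family sum was 0.736, 0.71, 0.675, 0.651 and 0.63. The 5 were picked by this rho, taken with a sum of which mir-133a-1 made up at least 93.8%. It is therefore not the same measure as rho between the 15 pairs of members, 0.516 to 0.933. For mir-133a-1 against mir-206, which was at 0 in 32 libraries, rho was 0.569. For the 5 precursors outside the family, rho with the family sum was 0.0846 to 0.342 within females and 0.534 to 0.727 within males. Pairs of members had rho 0.644 to 0.918 within females and 0.143 to 0.871 within males. These ranges were not compared by a test. The highest library of MI0001151 was Q92 male 2, as for mir-133a-1, and that of MI0000164 was Q175 female 3, 1 of the 7 libraries highest in mir-133a-1. That of MI0000798 was Q92 female 4, and those of MI0014027 and MI0000169 were Q20 male 2.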

How the data were processed

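The authors deposited 2 tables over 52 libraries and 1187 precursors: estimated counts, which need not be whole (89.1% lay within 1e-04 of a whole number), and RPKM values (reads scaled to precursor length and library size). The submitters' processing notes name CASAVA 1.8.2; per the labels' protocols, total RNA was extracted with a Qiagen miRNeasy kit and enriched for a subfraction. Sources used here do not name an aligner, a genome build, a miRBase release or a counting tool. Precursor lengths implied by the 2 tables equalled those of RefSeq for all 6 members.

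Groups came from the labels. Whole-number counts had been planned for; the estimated counts were rounded and tested with edgeR 4.0.16 (quasi-likelihood, robust, TMM scaling, R 4.3.3) keeping precursors that reached 10 counts in 7 or more libraries of the fit, sex or genotype as covariate, and Benjamini-Hochberg adjustment over all precursors tested (threshold 0.05). SE is the log2 fold change divided by the square root of F. CPM used TMM factors. Of the 6 members, 4 passed the filter in each genotype fit and 5 in the fit of sex. Alternatives were DESeq2 1.42.0, limma 3.58.1 on log2(RPKM + 1) or log2(RPKM + 10), other filters and scalings, and omitted libraries. The script was tested on simulated data. Replicates of a group differed beyond sampling noise (72 pairs, lowest chi-square per degree of freedom 26.2). Replicate numbers did not pair libraries. All 6 members are named, though not each of them in every comparison, and the most similar precursors are the 5 with the highest rho. The members, lists and tests were chosen with earlier results of these data known. Of 9 lists of marker microRNAs with 42 members, 0 accessions could be matched to a name, so they were not analysed here.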

Additional observations from a re-analysis of the deposited data

Results flagged for a closer look

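In 54 sets of 4 libraries of 1 genotype and sex with any spread, 1 library stood apart from the other 3 in 23, always above them, by a gap over 0.829 of the whole range; chance flags about 1 set in 20 for values with a normal spread, which these skewed values with many zeros do not have, and the members share libraries. In 9 of the 23 the other 3 libraries were at or near 0, where any count at all is set apart. The 23 fell in 10 libraries. The 4 groups of 3 libraries were not tested in this way: Q92 males, Q111 females, Q140 females and WT females. High libraries such as Q92 male 2, Q111 female 2, Q140 female 3 and WT female 3 could therefore not be listed. Q80 female 2 stood apart for all 6 members, at 9175 CPM of mir-133a-1, 189 CPM of mir-1a-2, 34.7 CPM of mir-133a-2, 54.1 CPM of mir-1a-1, 26.2 CPM of mir-206 and 7.38 CPM of mir-133b. Q20 male 2 stood apart for mir-133a-1 (2481 CPM), mir-1a-2 (90.6 CPM), mir-1a-1 (5.27 CPM) and mir-133b (1.053 CPM), but had no count of mir-206. Q175 female 3 stood apart for mir-133a-1 (3795 CPM), mir-1a-2 (102 CPM) and mir-133a-2 (17.4 CPM), and Q80 male 2 for mir-133a-1 (1147 CPM), mir-1a-1 (10.9 CPM) and mir-133b (0.947 CPM). Q92 female 3 stood apart for mir-1a-1 (65.9 CPM).

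The other 6 rest on few counts or a small step. mir-1a-1 was 3.77 CPM in Q20 female 1 and 3.40 CPM in WT male 4, with the others at or near 0. mir-133b was 1.09 CPM in Q175 male 2 and 0.226 CPM in WT male 4. mir-206 was 0.291 CPM in Q20 female 3, which is 1 count. mir-133a-1 was 282 CPM in WT male 3, against 208 to 219 CPM in the other WT males.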

How the results depend on the processing

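Q92 against Q20 had 3 members called (background 4.06%) and 0 to 4 when single libraries were left out. With no filter on counts only mir-206 was called (background 1.56%). It had 1 count in Q20, and 254 of its 399 counts in Q92 were in male 2, so that call is a description only. Q92 had 0 called with RLE scaling, limma on log2(RPKM + 1) or log2(RPKM + 10), the paralogs summed or a lane covariate. It also had 0 in females alone, in males alone, without the libraries above 5 on principal component 1, and without Q140 female 2 and Q140 male 4. Without Q92 male 2 and Q92 female 3, chosen after seeing the data, it had 0 too. The cause was not tested; each sex alone and each omission leaves fewer libraries. Its direction was positive in every one of these for each member tested. With the replicate number as a block it had 0 called instead of 3 (mir-133a-1 2.68, edgeR adjusted p 0.0636); the numbers do not pair libraries (mean correlation of same-numbered deviations 0.021 in the WT and Q175 set and -0.019 in the other), and the block changed no other count of called members. Females against males had mir-133a-1, mir-133a-2, mir-1a-2 and mir-1a-1 called (background 48.3%). mir-206 passed the filter only through females, so its call is left out of that count. Counts that do include it were 3 with the paralogs summed (where 3 were tested) and 3 to 5 over omissions. With no filter 3 were called, with mir-206 among the members tested. Within the WT and Q175 set 3 were called (background 30.5%), and within the Q20 to Q140 set 0 (background 36.2%). Q175 against WT had 1 called with DESeq2 instead of 0.

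Directions turned only for uncalled log2 values. For Q80, mir-1a-2 was -0.089 with the replicate block, -1.18 in males alone and -0.0087 without the 2 Q92 libraries (-0.73 to 1.17 over omissions); mir-133a-1 was -0.086 with the block and -0.81 in males alone (-0.66 to 1.19); mir-133a-2 was -0.15 and -0.048 with limma at pseudocounts of 1 and 10, -0.36 with the block and -1.27 in males alone (-1.16 to 0.93). For Q111, mir-1a-2 was -0.17 with lane, -1.83 in males alone and -0.15 without the 2 Q92 libraries (-0.30 to 1.046); mir-133a-1 was -1.54 in males alone and -0.11 without those libraries (-0.36 to 0.91); mir-133a-2 was -1.28 in males alone (-0.060 to 0.95). For Q140, in males alone mir-133a-1 was -0.36 (-0.13 to 1.12 over omissions) and mir-133a-2 -0.38. mir-1a-2 in Q140, at -0.011, was 0.0093 with DESeq2, 0.021 with RLE, 0.026 with no filter, 0.065 with at least 50 counts, 0.60 and 0.58 with limma, 0.065 without the 5 most abundant precursors, 0.58 with the block, 1.57 without libraries above 5 on principal component 1, 0.12 with lane and 1.29 in females alone (-0.18 to 1.08). For Q175, mir-1a-1 ran from -0.0037 to 1.09 over omissions. Without Q20 the slopes per 100 repeats were -2.999 (mir-1a-1), -3.50 (mir-1a-2), -3.25 (mir-133a-1) and -3.02 (mir-133a-2); that of mir-1a-2 was also -0.22 in males alone and -0.068 without the 2 Q92 libraries (-0.12 to 1.37). The interaction of sex and CAG length for mir-1a-1 was -9.76 without the libraries above 5 on principal component 1. Depth limits mir-206 and mir-133b, at or near 0 in most libraries.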
